A study of Mus musculus with 6 samples.

Results

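The genes described here are the D-type cyclins Ccnd1, Ccnd2 and Ccnd3, their partner kinases Cdk4 and Cdk6, the CDK inhibitors Cdkn2a, Cdkn2b, Cdkn2c and Cdkn1b, and the pocket protein gene Rb1. They were taken by symbol from the deposited expression table, and all 10 were found among its 16880 genes. RNA was sequenced from 2 groups of mouse cells that both received 10 ng/mL IL-1β, an inflammatory cytokine, and of which 1 group also received 10 μmol/L NP-G2-044, a small molecule inhibitor of the actin-bundling protein FSCN1. The methods give 24 h of treatment and 3 biological replicates per group, whereas the labels do not say whether the 3 libraries of a group came from separate cultures, so that p-values measure the spread between these libraries, which may be technical. By their labels the cells are ATDC5, a chondrogenic line of mouse origin, and the methods call the sequenced cells chondrocytes; the treatment label of the inhibitor group reads NP-G2-047 where its titles read NP-G2-044. A group without IL-1β was not analysed here, so every difference is that of the inhibitor on top of IL-1β.

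Progression through G1 depends on D-type cyclins, which bind CDK4 or CDK6 and start the phosphorylation of the retinoblastoma protein RB1 and its relatives p107 and p130, together called pocket proteins. Unphosphorylated pocket proteins hold E2F transcription factors in check, and their release allows cyclin E, cyclin A and the DNA replication genes to be transcribed. INK4 proteins (p16, p15, p18 and p19, from Cdkn2a, Cdkn2b, Cdkn2c and Cdkn2d) bind CDK4 and CDK6 alone, whereas CIP/KIP proteins (p21, p27 and p57, from Cdkn1a, Cdkn1b and Cdkn1c) mainly block cyclin E-CDK2 and cyclin A-CDK2. In cartilage, D-type cyclins are known as targets of the mitogens that drive growth plate chondrocytes to divide, and p57 as a gene of cells that leave the cycle.

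The libraries held 16615824 to 16878164 reads with IL-1β alone and 17529844 to 17735860 where the inhibitor was added, and no library stood apart from its group. The common biological coefficient of variation was 2.33%, so that small differences passed the test. Of 10 chondrocyte markers 7 were listed and 2, Sox9 and Col11a2, reached a mean of 1 TPM (a level per transcript length, scaled to the same total in each library), Col2a1 being at 0.217 TPM without the inhibitor and 0.04 TPM with it. The summed level of 8 fibroblast markers, almost all of it Col1a2, ran from 1120 to 1160 TPM with IL-1β and from 345 to 359 TPM with the inhibitor, with Thy1 at 0 reads, while Pdgfra of the same list went from 2.36 to 8.69 TPM. That of the 4 listed of 5 macrophage markers, almost all of it Cd68, ran from 11.3 to 14.3 TPM and from 124 to 135 TPM, with Ptprc at 0 reads. The chondrocyte markers summed to 11.5 to 12.2 TPM and 14.8 to 15.0 TPM, Sox9 going from 6.44 to 11.4 TPM and Col11a2 from 5.01 to 3.43 TPM. The sums were, for osteoblast markers (3 of 5 listed), 23.3 to 25.8 TPM and 12.4 to 13.6 TPM, for adipocyte markers (3 of 4 listed), 2.87 to 5.09 TPM and 0.36 to 0.74 TPM, and endothelial markers stayed at or below 0.55 TPM. The part of these shifts in the results that follow was not tested. Fscn1, the gene of the inhibited protein, was at 616.2 ± 9.46 TPM without and 252.4 ± 2.47 TPM with the inhibitor (SD, n = 3 each).

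Every one of the 10 genes had at least 126 reads in each library and was tested. With NP-G2-044, 4 were higher (Ccnd1, Ccnd2, Cdkn1b and Rb1), 4 were lower (Ccnd3, Cdkn2a, Cdkn2b and Cdkn2c), and Cdk4 and Cdk6 were not called, judged by edgeR's quasi-likelihood test, with p adjusted after Benjamini and Hochberg over 11983 genes and a threshold of 0.05, which all adjusted p-values below refer to unless another tool is named. Across all tested genes 80.0% were called, 40.2% higher and 39.8% lower, so the count of called genes is that of the background. Past an additional cutoff of 1 in size on the log2 scale, Ccnd2 was higher and Cdkn2b and Cdkn2c were lower, where 16.6% of all tested genes passed both cutoffs, 6.48% higher and 10.1% lower. The median size of the log2 fold change was 0.35 over the 10 genes and 0.39 over all tested genes. In 7 of the 10 genes the normalised read counts of the groups did not overlap, against 80.8% of all tested genes; the 3 that overlapped were Cdk4, Cdk6 and Rb1.

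**Figure D1:**
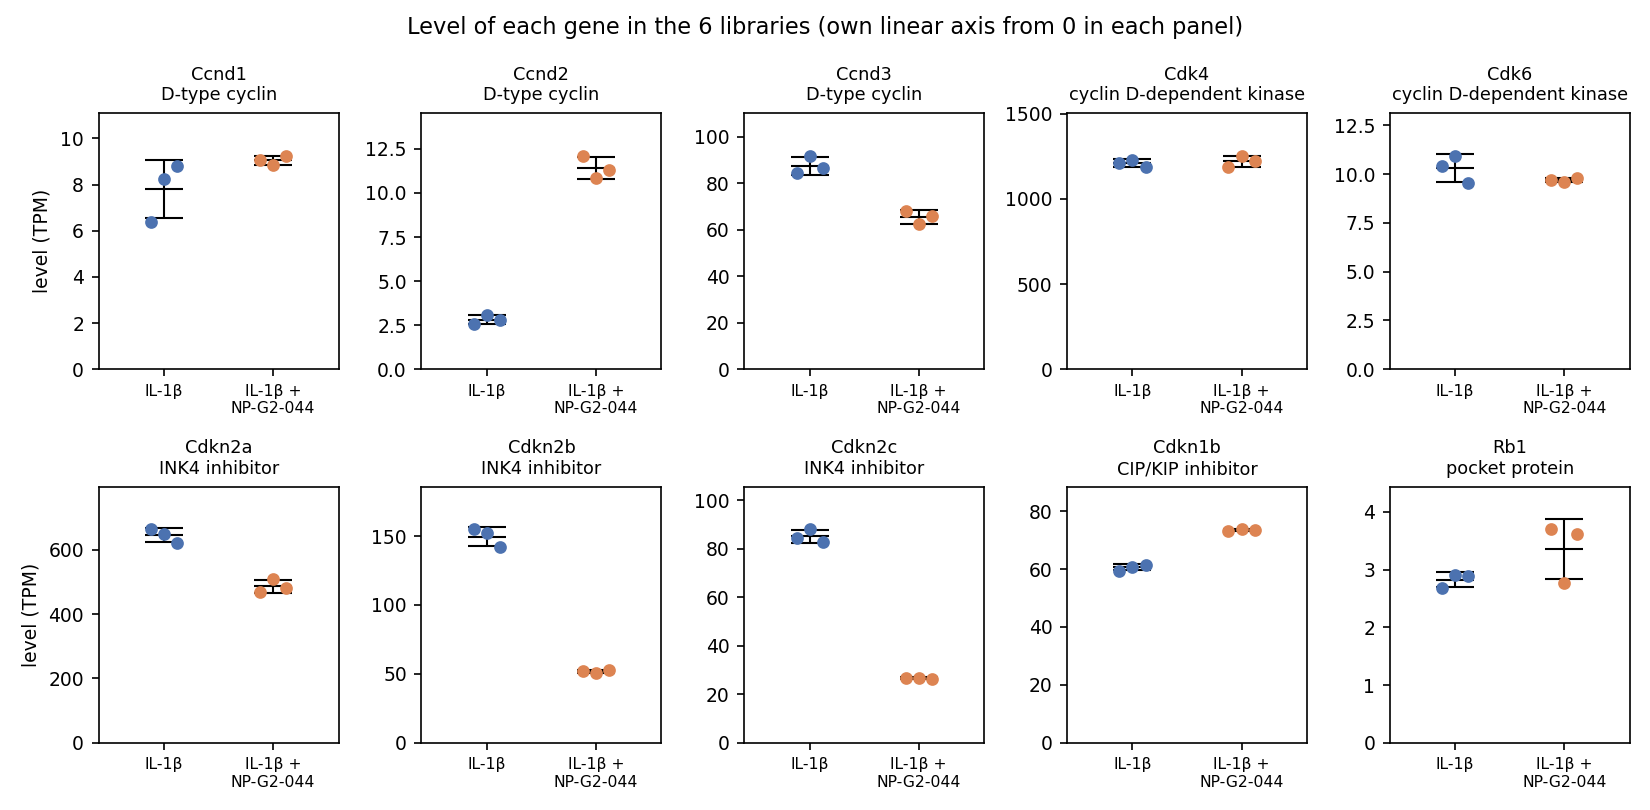
Level in TPM (vertical axis, linear from 0, scaled separately in each panel) of each of the 10 genes in the 3 IL-1β libraries (blue) and the 3 IL-1β plus NP-G2-044 libraries (orange); black bars give mean ± SD. Ccnd2 stands far higher and Cdkn2b and Cdkn2c far lower with the inhibitor, while the points of Cdk4 and Cdk6 overlap.

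The D-type cyclins moved in different directions. Ccnd2 (Entrez gene 12444, chr6:127125162-127152188 in GRCm38, the assembly also known as mm10) was at 2.55, 3.07 and 2.81 TPM without the inhibitor and at 12.11, 10.87 and 11.29 TPM with it. All libraries with the inhibitor were above all of those without it. Its log2 fold change of 2.06 (SE, the standard error, 0.0705, 95% interval 1.92 to 2.20, adjusted p = 5.36e-32), a 4.16-fold rise, was larger in size than that of 95% of the tested genes. It rests on 501 reads over the IL-1β libraries and 2194 over the others.

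Ccnd3 (Entrez gene 12445, chr17:47505051-47599689), the most abundant of the D-type cyclins in both groups, was at 84.3, 91.9 and 86.7 TPM with IL-1β and at 68.1, 62.3 and 65.96 TPM with the inhibitor. The groups did not overlap, and the gene fell by 0.39 on the log2 scale (SE 0.0392, 95% interval −0.47 to −0.31, adjusted p = 6.61e-13). Ccnd1 (Entrez gene 12443, chr7:144929931-144939831), the cyclin best known as a target of mitogen and Wnt signaling, was at 6.4, 8.23 and 8.81 TPM with IL-1β and at 9.06, 8.83 and 9.25 TPM with the inhibitor. Replicate 1 of the IL-1β libraries was the lowest of the 6, and replicate 3 nearly met the lowest library with the inhibitor. The log2 fold change of Ccnd1 was 0.25 (SE 0.0802, adjusted p = 0.00513), but without replicate 1 of the IL-1β libraries it was 0.13 (adjusted p = 0.135), and limma on log2(TPM + 1) gave 0.20 (adjusted p = 0.0679).

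As a share of their summed TPM, Ccnd3 made up 90.4%, 89.0% and 88.2% of the D-type cyclins with IL-1β and 76.3%, 76.0% and 76.3% with the inhibitor. The share of Ccnd2 went from 2.86% ± 0.12 to 13.3% ± 0.259, and that of Ccnd1 from 7.93% ± 1.05 to 10.5% ± 0.336 (SD, n = 3 each). With read counts scaled to library size in place of TPM, the share of Ccnd2 rose by 22.8 percentage points rather than 10.4, that of Ccnd1 by 1.09 rather than 2.6, and that of Ccnd3 changed by −23.9 rather than −13.0. The mean level of Ccnd3 was 31.2 times that of Ccnd2 with IL-1β and 5.73 times with the inhibitor. The summed level of the 3 cyclins was 93.2, 103 and 98.4 TPM with IL-1β and 89.3, 82.0 and 86.5 TPM with the inhibitor. None of these 4 quantities (the shares and the sum, in TPM) overlapped between the groups, and each had p = 0.1 in a two-sided exact permutation test, the smallest p that 3 against 3 libraries allow.

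Of the kinases, Cdk4 (Entrez gene 12567, chr10:127063535-127067288), the more abundant of the 2 cyclin D partners, was at 1211, 1230 and 1184 TPM with IL-1β and at 1184, 1252 and 1221 TPM with the inhibitor. Its level was above that of 99.1% of the tested genes and its log2 fold change was 0.04 (95% interval −0.01 to 0.10, adjusted p = 0.165). Cdk6 (Entrez gene 12571, chr5:3341004-3531008) was at 10.4, 10.9 and 9.52 TPM and at 9.71, 9.60 and 9.79 TPM, with a log2 fold change of −0.04 (95% interval −0.13 to 0.04, adjusted p = 0.343). The intervals, which rest on the spread between these libraries alone, reach 1.07-fold upward in Cdk4 and down to 0.915-fold in Cdk6. Both entered the called range with 1 library left out, Cdk4 without replicate 1 of the inhibitor group at 0.07 (adjusted p = 0.0406) and Cdk6 without replicate 3 of the IL-1β group at −0.10 (adjusted p = 0.0345). The mean level of Cdk4 was 117 times that of Cdk6 with IL-1β and 126 times with the inhibitor, and the share of Cdk6 in their sum was 0.844% ± 0.0424 and 0.79% ± 0.0267 (SD, n = 3 each, exact permutation p = 0.2, two-sided), a difference of −0.0539 percentage points that was −0.401 with scaled read counts.

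All 3 INK4 genes of the set were lower with NP-G2-044, by different amounts. Cdkn2c (Entrez gene 12580, chr4:109660876-109666756), which encodes p18, was at 84.4, 88.0 and 82.9 TPM with IL-1β and at 26.7, 26.8 and 26.1 TPM with the inhibitor. It fell by 1.71 on the log2 scale (SE 0.0471, 95% interval −1.80 to −1.61, adjusted p = 2.49e-36), to 0.306 of its level. Cdkn2b (Entrez gene 12579, chr4:89306289-89311032), which encodes p15 and is known as a gene induced by TGF-β, was at 154.9, 152.0 and 142.0 TPM and at 52.0, 50.7 and 53.1 TPM. It fell by 1.5 on the log2 scale (SE 0.044, 95% interval −1.59 to −1.41, adjusted p = 4.51e-35). For both genes the highest library with the inhibitor lay far below the lowest library without it.

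Cdkn2a (Entrez gene 12578, chr4:89274473-89294619) encodes p16 and, from an upstream first exon and another reading frame, p19Arf, which acts on p53 through MDM2. It was at 664.2, 649.5 and 621.7 TPM with IL-1β and at 468.8, 508.8 and 482.6 TPM with the inhibitor, above 98.3% of the tested genes. It fell by 0.43 on the log2 scale (SE 0.0329, 95% interval −0.50 to −0.36, adjusted p = 1.83e-15), and the groups did not overlap. The table gives 1 value per gene, and in GENCODE M21 the 2 Cdkn2a transcripts, of 852 and 895 bases, share 575 bases, so p16 and p19Arf cannot be told apart here. The fourth INK4 gene, Cdkn2d, was also lower, at 27.2 ± 2.46 TPM without and 13.7 ± 0.947 TPM with the inhibitor (n = 3, SD), with a log2 fold change of −0.96 (SE 0.0899, adjusted p = 4.42e-14).

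The summed level of the 4 INK4 genes was 933, 914 and 874 TPM with IL-1β and 562, 599 and 576 TPM with the inhibitor. Cdkn2a held 71.1% ± 0.0728 of that sum with IL-1β and 84.1% ± 0.794 with the inhibitor (SD, n = 3 each). Set against the summed level of Cdk4 and Cdk6, the INK4 sum was 0.764, 0.737 and 0.733 with IL-1β and 0.471, 0.475 and 0.468 with the inhibitor. The libraries of the groups were fully apart in each of these quantities (exact permutation p = 0.1, two-sided, the smallest possible). In bulk RNA, fewer cells that express a gene and less of its RNA per cell cannot be told apart, here and in all results below.

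**Figure D2:**
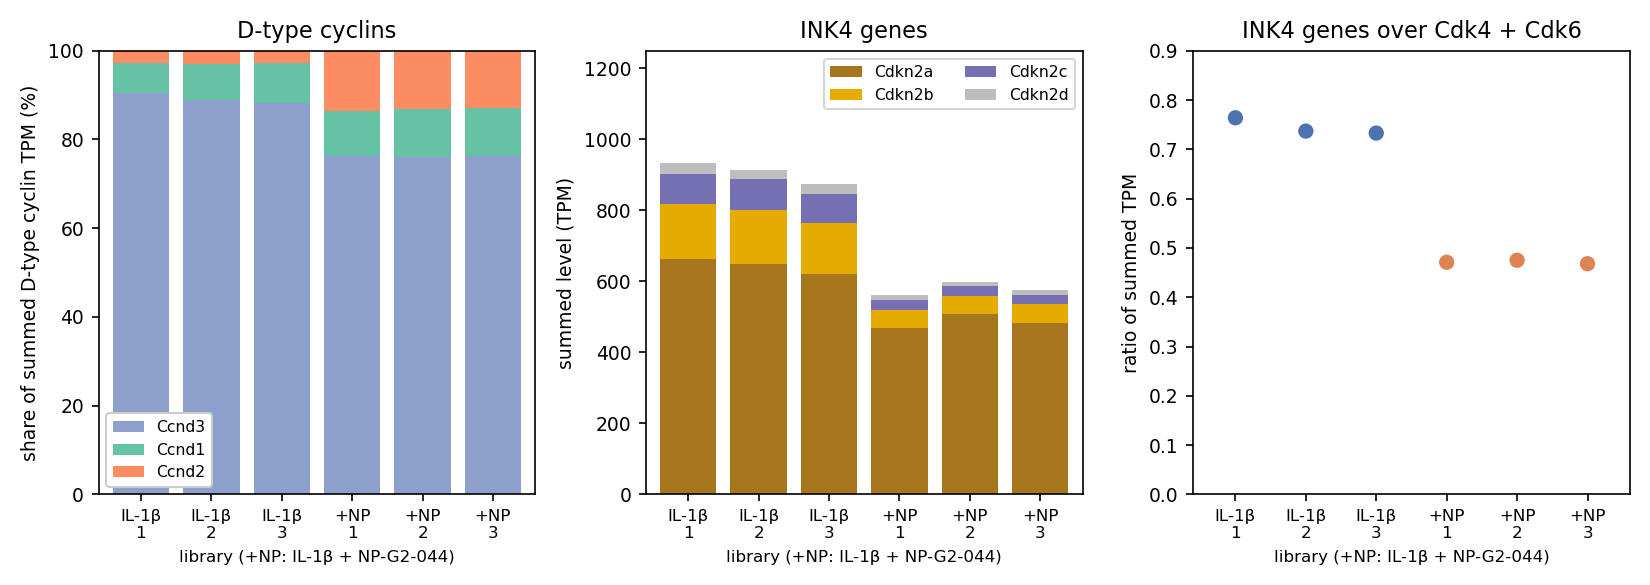
Left, share in percent of each D-type cyclin in their summed TPM; middle, stacked levels in TPM of the INK4 genes; right, ratio of the INK4 sum to the sum of Cdk4 and Cdk6, each for the 3 IL-1β libraries and the 3 libraries with NP-G2-044 added (+NP). With the inhibitor the Ccnd2 share is about 13% in each library, the INK4 columns are shorter, and the ratio lies between 0.468 and 0.475.

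Start site windows of Cdkn2a and Cdkn2b, neighbours on chromosome 4 that were both lower, are shown beside that of Cdkn1b, which was higher. The sequences are RefSeq's, on GRCm38.p6, from 250 bases before to 50 bases after the annotated start, written 5′ to 3′ on the strand of the gene, and 7 of the 10 genes had 1 or more such windows, 10 in all. Capitals mark matches, on either strand, to the E2F motifs TTTCCCGC and TTTGGCGC, the cyclic AMP response element TGACGTCA, or CCAAT. The windows are chr4:89294570-89294869 for the upstream (p19Arf) start of Cdkn2a, chr4:89282143-89282442 for its downstream (p16) start, chr4:89310983-89311282 for Cdkn2b, all on the minus strand, and chr6:134920151-134920450 on the plus strand for Cdkn1b.
Cdkn2a upstream start: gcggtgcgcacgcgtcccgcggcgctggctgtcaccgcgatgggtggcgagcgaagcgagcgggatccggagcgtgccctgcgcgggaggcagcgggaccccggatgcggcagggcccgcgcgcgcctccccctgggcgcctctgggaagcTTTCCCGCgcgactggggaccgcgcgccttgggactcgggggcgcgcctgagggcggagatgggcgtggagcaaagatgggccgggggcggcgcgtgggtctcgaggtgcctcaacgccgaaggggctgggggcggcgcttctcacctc
Cdkn2a downstream start: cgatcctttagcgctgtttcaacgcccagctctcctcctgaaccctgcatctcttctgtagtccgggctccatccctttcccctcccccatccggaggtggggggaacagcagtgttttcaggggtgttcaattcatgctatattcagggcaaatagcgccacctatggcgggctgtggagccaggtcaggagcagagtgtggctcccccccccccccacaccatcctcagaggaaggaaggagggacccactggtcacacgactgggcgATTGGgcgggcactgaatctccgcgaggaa
Cdkn2b: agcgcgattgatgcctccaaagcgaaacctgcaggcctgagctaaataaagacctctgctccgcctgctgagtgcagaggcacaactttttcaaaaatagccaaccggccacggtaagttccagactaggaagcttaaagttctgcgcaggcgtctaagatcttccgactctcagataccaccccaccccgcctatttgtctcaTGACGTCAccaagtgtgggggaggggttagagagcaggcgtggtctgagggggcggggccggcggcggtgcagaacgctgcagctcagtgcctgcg
Cdkn1b: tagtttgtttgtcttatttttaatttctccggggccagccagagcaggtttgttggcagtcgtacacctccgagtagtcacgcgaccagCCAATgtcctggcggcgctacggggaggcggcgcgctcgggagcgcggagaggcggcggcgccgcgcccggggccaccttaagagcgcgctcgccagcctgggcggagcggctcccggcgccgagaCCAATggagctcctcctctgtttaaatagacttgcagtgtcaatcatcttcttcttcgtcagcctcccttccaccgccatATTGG

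The upstream Cdkn2a window held TTTCCCGC from position −99, counted from the start site, a match to an E2F motif that 1.56% of 32851 RefSeq windows have. These windows, called all windows below, leave out those of a chromosome that was not searched. The Cdkn2b window held TGACGTCA from position −46, which 1.79% of all windows have. CCAAT, or ATTGG on the other strand, occurred 3 times in the Cdkn1b window and once in the downstream Cdkn2a window, and 37.4% of all windows have it. The downstream windows of Ccnd3 (chr17:47593217-47593516, from position −108) and Cdkn2c (chr4:109665323-109665622, from position 8), not shown here, also held it. Their upstream windows and those of Cdk4 and Cdk6 held no match to any motif searched. Ccnd3 and Cdkn2c were both lower with the inhibitor. None of the 10 windows held the AP-1 motif TGACTCA or its complement TGAGTCA, found in 5.2% of all windows. These are matches of letters and say nothing about binding in these cells.

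The CIP/KIP gene of the set, Cdkn1b (Entrez gene 12576, chr6:134920401-134925525), which encodes p27, was at 59.5, 60.9 and 61.5 TPM with IL-1β and at 73.2, 73.8 and 73.6 TPM with the inhibitor. Every library with the inhibitor was higher, and the spread in both groups was small. It rose by 0.31 on the log2 scale (SE 0.0362, 95% interval 0.24 to 0.38, adjusted p = 5.24e-11), a 1.24-fold change. Its relatives were far less abundant. Cdkn1a, the p53 target that encodes p21, rose from 0.81 ± 0.43 TPM to 2.96 ± 0.463 TPM, a log2 fold change of 1.90 (SE 0.244, adjusted p = 1.52e-09). Cdkn1c, which encodes p57, fell from 1.70 ± 0.13 TPM to a level of 0.47 ± 0.108 TPM (n = 3, SD), a log2 fold change of −1.83 (SE 0.29, adjusted p = 1.36e-07), on 89 reads against 26. The CIP/KIP genes together made up 6.23%, 6.54% and 6.77% of the summed TPM of the 7 CDK inhibitor genes with IL-1β and 11.9%, 11.4% and 11.9% with the inhibitor.

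Rb1 (Entrez gene 19645, chr14:73192858-73325951) was at 2.68, 2.91 and 2.89 TPM with IL-1β and at 3.70, 2.76 and 3.61 TPM with the inhibitor. Replicate 2 of the inhibitor group lay within the range of the IL-1β libraries. The log2 fold change was 0.28 (SE 0.106, 95% interval 0.07 to 0.49, adjusted p = 0.0144), and it was no longer called with DESeq2 (adjusted p = 0.115), without replicate 1 of the inhibitor group (0.21, adjusted p = 0.0932) or without its replicate 3 (0.22, adjusted p = 0.0921). The other pocket protein genes were more abundant and lower with the inhibitor. Rbl1, which encodes p107, went from 40.3 ± 0.622 TPM to 27.6 ± 0.41 TPM and fell by 0.65 on the log2 scale (SE 0.0384, adjusted p = 9.18e-22). Rbl2, which encodes p130, the pocket protein of resting cells, went from 24.6 ± 0.743 TPM to a level of 12.1 ± 0.667 TPM (n = 3, SD) and fell by 0.99 (SE 0.0461, adjusted p = 5.24e-26). The share of Rb1 in the summed TPM of the 3 genes was 4.17% ± 0.194 with IL-1β and 7.77% ± 0.938 with the inhibitor (SD, n = 3 each, exact permutation p = 0.1, two-sided).

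**Figure D3:**
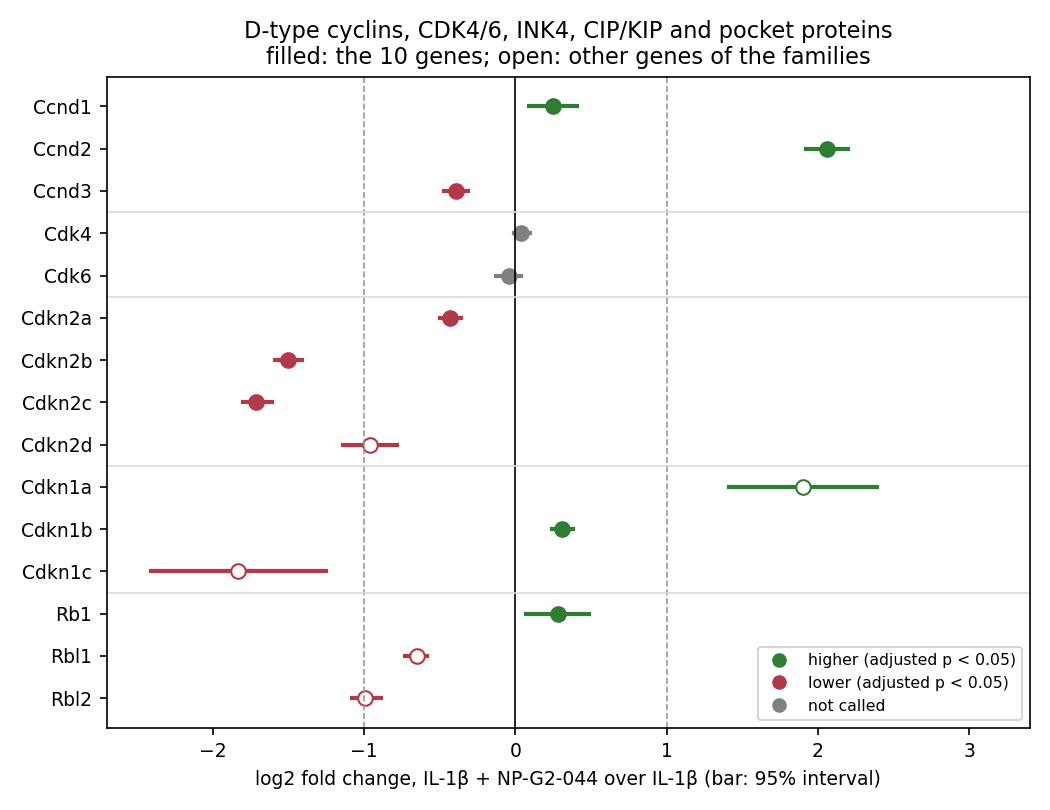
Log2 fold change (horizontal axis, with over without NP-G2-044, bars give 95% intervals from the edgeR fit) of the 10 genes (filled) and 5 other genes of the same families (open); dashed lines mark 1 in size. The 4 INK4 genes all lie left of 0, Cdk4 and Cdk6 at it, and Ccnd2 and Cdkn1a farthest to the right.

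Ordered by mean TPM, the genes ran with IL-1β from Cdk4 through Cdkn2a, Cdkn2b, Ccnd3, Cdkn2c, Cdkn1b, Cdk6 and Ccnd1 to Rb1 and Ccnd2. The ranges of Ccnd3 and Cdkn2c overlapped in that order, as did those of Rb1 and Ccnd2. With the inhibitor Cdkn1b and Ccnd3 came ahead of Cdkn2b and Cdkn2c, and Ccnd2 came ahead of Cdk6, Ccnd1 and Rb1, with no neighbours whose ranges overlapped.

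Downstream of the pocket proteins, most listed genes were lower with NP-G2-044. Over all tested genes 39.8% were lower and 40.2% higher, which is the background for each count of a list below. All 5 genes of the cyclin E and A group with CDK2 fell, with a median log2 fold change of −1.0 against 0.00 over all tested genes. Ccna2, the cyclin of S phase and G2, went from 172.9 ± 3.95 TPM to 45.0 ± 0.287 TPM (log2 fold change −1.91), Ccne2 changed by −1.42, Ccne1 by −1.0 and Cdk2 by −0.39. Among 10 E2F and DP factors 7 fell, 2 rose and 1 was not called. The 2 that rose were E2f1, from 42.2 ± 1.95 TPM to 53.6 ± 1.53 TPM (0.38), and E2f4, from 135.1 ± 2.34 TPM to 148.3 ± 2.02 TPM (0.16). Both were named after their values were seen. The largest falls were those of E2f8, from 37.2 ± 1.06 TPM to 9.92 ± 0.537 TPM (−1.88), and E2f7 (−1.81), which encode atypical E2F repressors, followed by E2f2 (−0.76) and the E2F partner Tfdp2 (−0.54).

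Of 15 replication genes controlled by E2F, 11 fell, 3 rose and 1 was not called, with a median of −0.56. Rrm2, a subunit of ribonucleotide reductase, changed by −1.55, the thymidine kinase gene Tk1 by −1.38 and the thymidylate synthase gene Tyms by −1.19. Cdt1, which loads the MCM helicase onto origins, went the other way, from 120.2 ± 3.13 TPM up to 272.7 ± 3.61 TPM (SD, n = 3 each, log2 fold change 1.21). All 9 mitotic genes fell, with log2 fold changes of −1.15 to −2.25. Mki67, the gene of the Ki-67 proliferation antigen, went from 108.5 ± 7.49 TPM to 22.4 ± 1.18 TPM (−2.25), and Aurkb was at −1.89, Plk1 at −1.77 and Ccnb2 at −1.74. In the MuvB group, which joins p107 or p130 to repress and MYBL2 or FOXM1 to activate cell cycle genes, 4 of 7 fell and 2 rose. There Foxm1 changed by −1.32, Lin9 by −0.75, Mybl2 by −0.51 and Lin52 by 0.39.

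Lists of genes that act on the cyclins and inhibitors were mixed, beside 39.8% lower and 40.2% higher over all tested genes. Among 7 tested genes of p27 turnover 4 fell and 2 rose. Those that fell included Skp2 (−0.63), the F-box protein that marks p27 for degradation, its cofactor Cks1b (−0.33) and Skp1 (−0.73), and Rnf123, a subunit of another p27 ubiquitin ligase, rose by 0.61. Of 4 FOXO genes, known activators of Cdkn1b, Foxo3 rose by 0.57, Foxo1 changed by −0.88 and Foxo4 by −0.25, and Foxo6 was not called. Of 5 genes of cyclin D turnover 2 rose, 1 fell and 2 were not called. The F-box genes Fbxo31 and Fbxo4 changed by −0.69 and 0.38, and Gsk3b, whose kinase marks cyclin D1 for degradation, rose by 0.32.

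Among 10 regulators of the Cdkn2a-Cdkn2b locus 6 fell, 2 rose and 2 were not called, with a median of −0.35. They included Id1 (−0.72) and Ets1 (−0.67), a repressor and an activator of p16 transcription, the Polycomb gene Cbx8 (−0.48), and the histone H3K27 demethylase gene Kdm6b, which rose by 0.55. In the MYC network 4 of 9 tested genes fell (44.4%) and 4 rose, near the 39.8% lower and 40.2% higher over all tested genes. Among the MAX partners that oppose MYC, Mxd3 was at 83.4 ± 1.4 TPM without and 7.93 ± 0.83 TPM with the inhibitor (SD, n = 3 each, log2 fold change −3.37), with Mxd4 at −2.44, Mxd1 at −1.22 and Mxi1 at −0.39, whereas Mnt rose by 0.35. Mlx rose by 0.57, Max by 0.51 and Myc itself by 0.49. Myc, Max, Mxi1 and Mnt were named after their values were seen.

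Of the antiproliferative genes 3 rose and 3 fell, with Btg2 at 1.31, Btg3 at 0.61, Tob1 at −0.67 and Ccng2 at −1.43. Among 11 other cyclins and CDKs 5 rose and 4 fell, Cdk8 by 0.94, Ccny by 0.87 and Cdk9 by 0.29 upward, with Cdk14 at −0.46. The CDK-activating kinase had Ccnh at 0.27, Mnat1 at 0.18 and Cdk7 at −0.05, the last not called, and Mnat1 was lost with DESeq2 (adjusted p = 0.0895), without replicate 2 of the IL-1β group (adjusted p = 0.0673) and without replicate 3 of the inhibitor group (adjusted p = 0.0771). Over the 16 lists, 106 genes outside the set of 10 were tested, of which 64 (60.4%) were lower and 29 (27.4%) higher, beside 39.8% and 40.2% of all tested genes. All changes in these paragraphs refer to the same edgeR test.

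**Figure D4:**
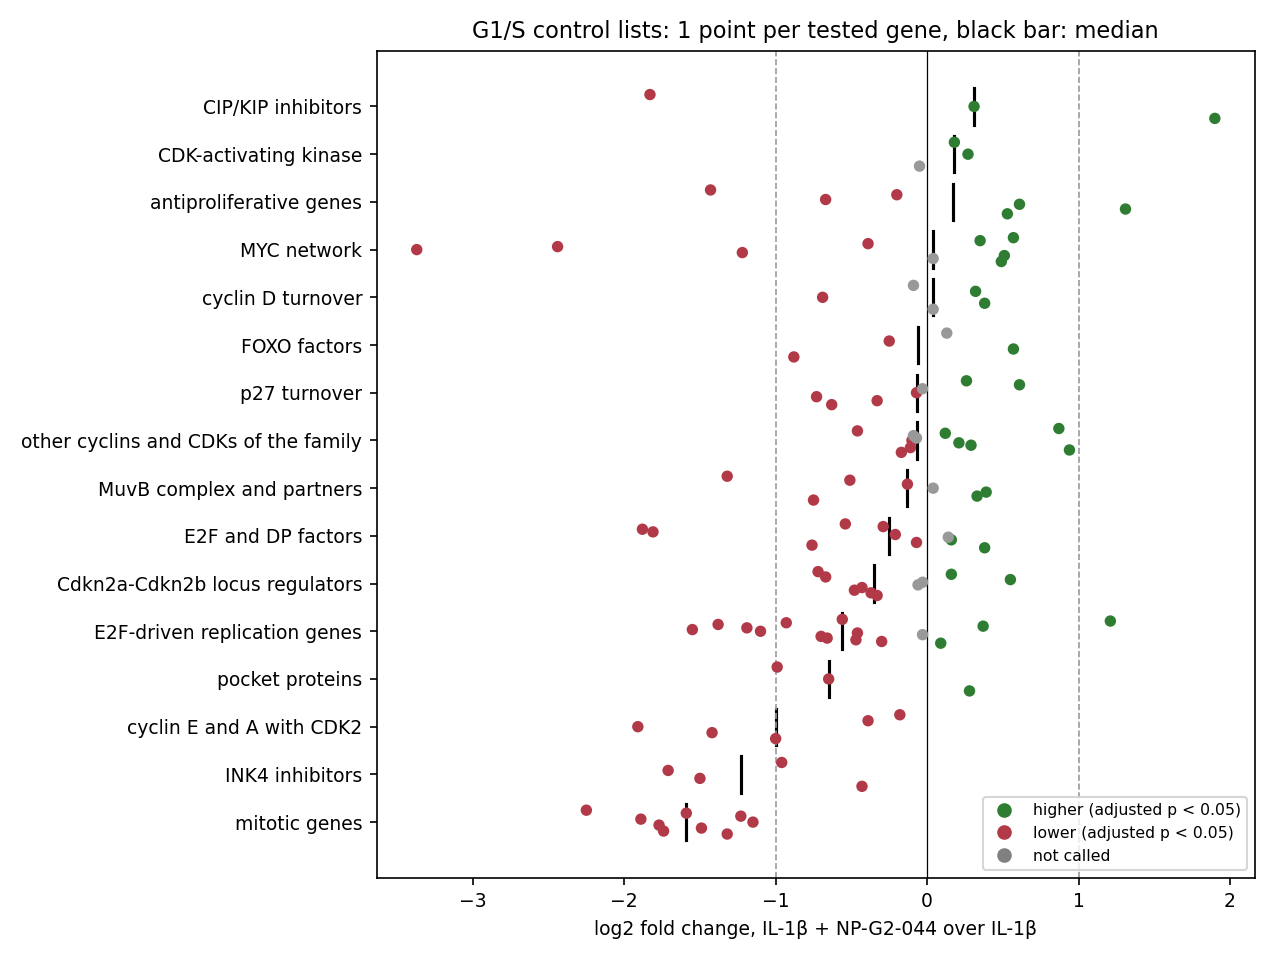
Log2 fold change (horizontal axis, with over without NP-G2-044) of each tested gene of 16 lists around the G1/S transition, sorted by median (black bar), with genes higher in green, lower in red and not called in grey. The 9 mitotic genes all lie below −1, and the CIP/KIP, MYC network and antiproliferative lists spread to both sides.

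Exons of several of these genes overlap a gene on the opposite strand in GENCODE M21, and no source used here says whether reads were counted by strand. For Ccnd1 the overlap with LTO1 covers 1100 bases, or 23.4% of its exonic bases, and LTO1 itself had a log2 fold change of 0.49. For Cdk4 the overlap with Tspan31 (0.32) covers 641 bases, for Ccnd3 that with Bysl (0.92) 361 bases, and for Rb1 those with Rcbtb2 (−0.74) and Lpar6 (−0.29) 488 and 408 bases. Ccnd2 overlaps antisense genes over 372 and 368 bases and Cdk6 over 368, none of them listed in the table. Cdkn1c overlaps the antisense gene Gm44732 over 30.7% of its exonic bases. Cdkn1a overlaps AC167363.2 over 273 bases, and Rbl2 overlaps Aktip (0.60) over 693 and Gm45464 over 892 bases. Exons of Cdkn2a, Cdkn2b, Cdkn2c and Cdkn1b overlap none. Reads of the partners could be included in the counts of Ccnd1, Ccnd2, Ccnd3, Cdk4, Cdk6, Rb1, Rbl2, Cdkn1a and Cdkn1c, and their part was not tested.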

How the data were processed

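The authors deposited 1 table with, for each gene and library, an estimated read count (an expected count, not normalized), TPM and FPKM. The submitters' notes name cutadapt, HISAT2 2.0, StringTie and the mm10 build, without roles. No source used here gives the counting tool, annotation or strand setting. The deposited TPM and FPKM values were made per library by the authors; TPM was used for levels, FPKM for implied gene lengths, and group means in the table were left out. Groups and replicate numbers came from the sample titles. Counts, of which 10.17% to 11.06% per library were not whole, were rounded. Of the 10 genes, Ccnd1 and Ccnd3 had counts that were not whole in all 6 libraries, and the others had none. Genes passed filterByExpr at a minimum count of 10, and after TMM scaling edgeR 4.0.16, under R 4.3.3, gave the test by glmQLFit (robust) and glmQLFTest on 3 against 3 libraries. P-values were adjusted over all 11983 genes tested. The standard error (SE) is the size of the log2 fold change over the square root of F. Shares and ratios of TPM were compared with exact permutation tests (scipy 1.17.1).

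The 10 genes and all lists were chosen with earlier results of these data known. Named genes were the 10, Cdkn2d, Cdkn1a, Cdkn1c, Rbl1, Rbl2, Fscn1, and up to 4 called genes per list with the largest change and a mean of at least 1 TPM. Overlapping and neighbouring genes, members of marker lists, and some further genes of the lists were named after their values were seen. Squared differences between libraries of a group were 1.539 to 2.393 times those of read sampling, so no pair was treated as 1 library deposited more than once. Alternatives were DESeq2 1.42.0, limma 3.58.1 (voom, and log2 TPM with 1 or 0.1 added), other scaling, filters and a replicate block, a test against a 1.2-fold change, and each library left out. The edgeR fit was run on simulated counts as a check of the code. Far fewer genes were changed there than were called here, so that run does not test calling where most genes change.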

Additional observations from a re-analysis of the deposited data

How the results depend on the processing

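Ccnd2, Ccnd3, Cdkn2a, Cdkn2b and Cdkn2c kept their direction and call in all 16 alternatives, between 1.71 and 2.11, −0.42 and −0.35, −0.46 and −0.40, −1.54 and −1.46, and −1.73 and −1.64 on the log2 scale, and none of the genes named by the rule reversed. The number of the 10 genes called higher went from 4 to 2 with limma on log2(TPM + 1) or log2(TPM + 0.1), and to 1 in a test against a 1.2-fold change, where Ccnd2 alone held (adjusted p = 0.0591 for Cdkn1b). That test lowered the higher calls to 3039 over all genes and to 19 in the lists, since it asks for a larger change. The genes past both cutoffs numbered 776 higher and 1211 lower, and became 514 and 802 with limma on log2(TPM + 1), which shrinks low genes (Cdkn1c to −0.88, Cdkn1a to 1.15), and 484 and 680 with a filter of at least 10 CPM in 3 libraries, which tests fewer genes and leaves out Rb1. Using library-scaled read counts in place of TPM, which weights longer transcripts more, changed the differences between groups to 1.09 percentage points for the Ccnd1 share, 22.8 for Ccnd2, −23.9 for Ccnd3 and −0.401 for the Cdk6 share, and that of the INK4 ratio to −0.22. Whether replicate numbers pair the libraries cannot be settled with so few of them. Deviations from the group mean correlated across genes at −0.0934, −0.0236 and 0.0259 for libraries of the same number. For libraries of different numbers they correlated at −0.1073 to 0.1292. With the replicate number as a block the 10 genes kept 4 higher and 4 lower calls, and all genes gave 4779 higher and 4719 lower. Depth limits Cdkn1a, with 42 reads over the IL-1β libraries, and Cdkn1c, with 26 over those with the inhibitor.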

Other observations

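The deposited table also holds the neighbours of the Cdkn2a-Cdkn2b locus on chromosome 4, which were looked at after the values of both genes were known. Mtap, which encodes methylthioadenosine phosphorylase of the methionine salvage pathway and lies next to Cdkn2a, was at 185.7, 185.1 and 187.3 TPM with IL-1β and at 91.4, 90.0 and 90.7 TPM with NP-G2-044 added, a log2 fold change of −1.0 (SE 0.0301, adjusted p = 1.07e-34, edgeR). Dmrta1, on the other side beyond Cdkn2b, was at or below 0.25 TPM in every library. Farther out, Klhl9 changed by −0.74 and Hacd4 by −1.93, and Focad rose by 0.23 on the log2 scale.

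The transcript length that the deposited count and FPKM of a gene imply can move between libraries where the quantification weights isoforms. Between the groups it moved by 0.38% in size at the median over 8233 genes with at least 5 FPKM in every library. With the inhibitor it moved by −3.56% for Cdkn2a, −3.73% for Cdkn2c and −8.91% for Rbl1, shifts larger in size than those of 94.5%, 94.9% and 98.9% of these genes. For Cdkn2c the implied length was 1606, 1574 and 1576 bases with IL-1β and 1535, 1543 and 1476 bases with the inhibitor, and GENCODE M21 lists transcripts of 1106 and 2471 bases from separate starts. For Cdk4, Cdkn2b and Cdkn2d the shift was 0.05% or less in size. Which transcripts changed was not tested, since values per transcript were not analysed here.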
